A study of Homo sapiens with 6 samples.

Results

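A673 and SK-N-MC, a pair of established Ewing sarcoma cell lines, were compared across 18417 genes on 6 whole-transcript expression arrays. All 6 arrays of the series entered the comparison, 3 of A673 and 3 of SK-N-MC, and they were matched by siRNA. Each line was transfected with a control siRNA that silences no gene, with an siRNA against DKK2, or with an siRNA against ITM2A, and each combination had 1 array. Cells grew on plastic in serum-rich RPMI medium, and the labels give no time after transfection. All 6 samples are siRNA-treated, so every value of either line comes from transfected cells, and each line stands for 1 tumour. The labels number the ITM2A siRNA differently in the lines, and whether the sequence was the same was not tested. Where several probe sets carried a gene's symbol alone, the brightest over the 6 arrays stood for the gene.

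Ewing sarcoma is a tumour of bone and soft tissue of the young, whose driver joins EWSR1 to an ETS transcription factor gene, usually FLI1. The fusion protein activates a programme of neural and cell cycle genes and silences mesenchymal ones, and cells that carry less of its activity are known to be more adherent and migratory. Lines from different patients share the fusion programme and can differ in the lineage, matrix and signalling genes they express beside it. ERK, the last kinase of the RAS-RAF-MEK cascade, induces its own inhibitors (the DUSP phosphatases and the Sprouty proteins), so the level of these transcripts is widely read as a record of pathway output.

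Levels are log2 values after RMA, so a difference of 1 is a 2-fold difference. The probe sets spanned 1.02 to 13.4, and array medians lay between 3.35 and 3.44. Over all probe sets the correlation was 0.986 to 0.991 between arrays within a line and 0.959 to 0.965 across lines. The silenced genes matched the labels: DKK2 stood at 8.64, 7.73 and 9.13 in A673 (control, DKK2 and ITM2A siRNA, the order used throughout) and at 8.01, 6.50 and 7.94 in SK-N-MC, and ITM2A at 8.52, 9.21 and 5.03 against 9.48, 9.66 and 6.10. Cell line accounted for 80.3% of the sum of squares over genes, siRNA for 11.5% and the remainder for 8.16%. The replicates of a line are 3 different siRNAs and nothing in the labels says they are separate cultures, so the p-values measure how evenly a line difference held across siRNAs. The number of arrays limits the precision.

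Of the 18417 genes, 2549 were higher in A673 and 2707 were higher in SK-N-MC (limma with siRNA as the block, Benjamini-Hochberg adjusted p under 0.05). These are 13.8% and 14.7% of the genes tested, the background against which each gene group is read. The split was nearly even, and the median difference over all genes was -0.02. Large differences were less balanced. With all 3 arrays of a line above all 3 of the other and at least 2-fold in every siRNA pair, 597 genes (3.24%) stood higher in A673 and 363 (1.97%) in SK-N-MC. At 8-fold or more in every pair there were 72 and 14 genes that passed the test, and at 16-fold or more 25 and 4.

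**Figure D1:**
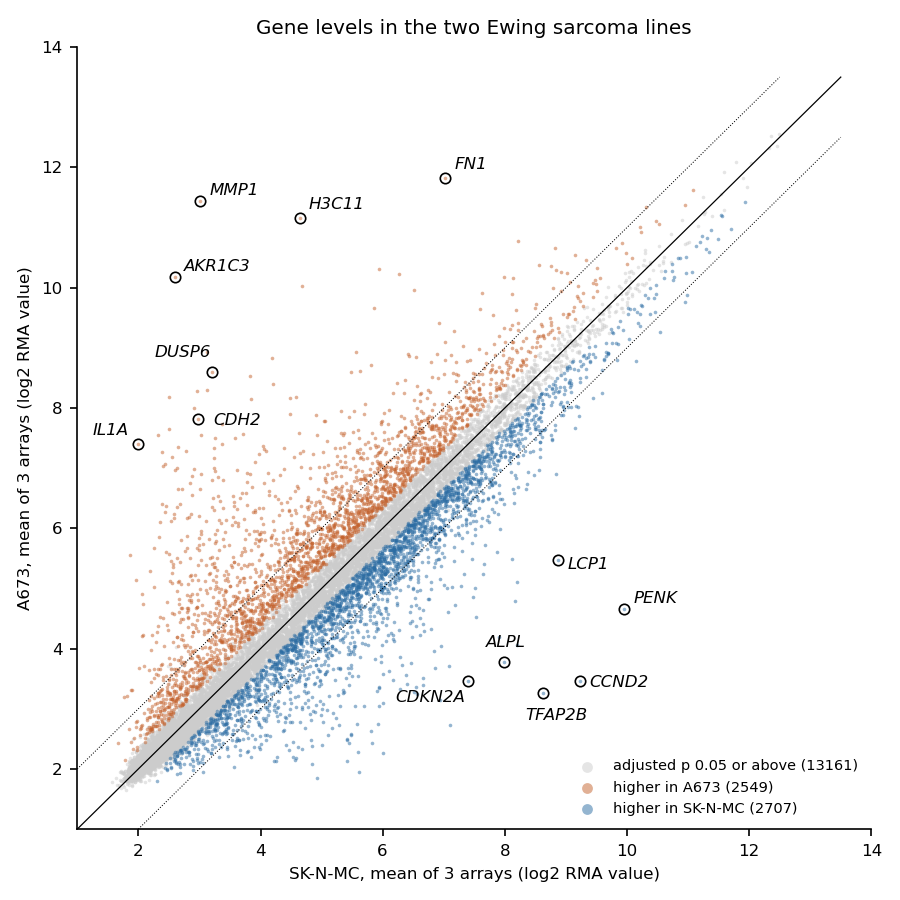
Mean log2 RMA value of each of 18417 genes over 3 SK-N-MC arrays (x axis) and over 3 A673 arrays (y axis), with genes past the adjusted p of 0.05 coloured by the line in which they were higher, the diagonal as a solid line and the 2-fold bounds dotted. MMP1 and AKR1C3 lie farthest above the diagonal, at means of 11.44 and 10.17 in A673 against 3.01 and 2.59 in SK-N-MC, and CCND2, TFAP2B and PENK farthest below it.

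MMP1, AKR1C3 and DUSP6 were chosen with their values known, so these are descriptions. MMP1, the interstitial collagenase, stood at 11.59, 11.02 and 11.72 in A673 and at 3.05, 2.95 and 3.02 in SK-N-MC, a 346-fold difference. AKR1C3, an aldo-keto reductase that acts on steroids and prostaglandins, stood at 10.07, 10.31 and 10.12 against 2.53, 2.01 and 3.24, or 191-fold. DUSP6, the phosphatase that inactivates ERK, stood at 8.44, 8.56 and 8.78 against 3.64, 2.79 and 3.21, or 41.8-fold. In each of the 3 genes the lowest A673 array lay more than 4 log2 units above the highest SK-N-MC array, whichever siRNA was used. SK-N-MC values near 2 to 3 lie in the low range of the arrays, where RMA compresses differences, so these folds may understate the change.

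Ordered by the smallest of the 3 siRNA-matched differences, MMP1, AKR1C3, the histone gene H3C11 and CSRP1 led the genes higher in A673. CSRP1 encodes a LIM-domain protein of the actin cytoskeleton and stood at 8.83, 8.76 and 9.19 in A673 and at 3.41, 3.07 and 2.87 in SK-N-MC, a difference of 5.81 ± 0.17 (SE, adjusted p = 2.2e-07). Near them were the cytokine gene IL1A, at 7.60, 6.77 and 7.86 against 2.15, 1.76 and 2.08 (5.41 ± 0.15, adjusted p = 1.98e-07), and the serpin SERPINB7 at 8.18, 8.26 and 8.12 against 2.32, 2.45 and 2.76 (5.68 ± 0.13, adjusted p = 1.78e-07). The arrays of the lines did not overlap for any of the 20 leading genes of either line, which the ranking itself ensures. CDH2 (N-cadherin), which holds mesenchymal and neural cells together, was even within each line, at 7.76, 7.81 and 7.89 against 3.04, 2.94 and 2.94, a 28.8-fold difference (adjusted p = 1.78e-07). THY1, a surface glycoprotein of fibroblasts and neurons, stood at 7.78, 8.75 and 8.38 against 3.18, 3.00 and 3.21, or 36.1-fold (adjusted p = 6.54e-07). TNFAIP6, a hyaluronan-binding protein of inflamed matrix, the desmosomal protein gene PKP1, the potassium channel subunit gene KCNE4 and the natriuretic peptide clearance receptor gene NPR3 were also among the 20, at 37.2-fold, 26.2-fold, 34.2-fold and 25.9-fold. So were the axon guidance genes DCC, a netrin receptor, and SEMA3A, a repulsive cue, at 29.6-fold and 24.8-fold, and the homeobox gene DLX5 at 20.7-fold. The remaining ones were H2BC14, TPTE2, GNG12 and SCRN1, with differences of 5.36, 5.33, 5.15 and 4.64 on the log2 scale.

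CCND2, TFAP2B, PENK and ALPL were chosen with their values known and are described. CCND2, the D-type cyclin that drives entry into the cell cycle, stood at 9.35, 9.32 and 9.03 in SK-N-MC and at 3.82, 3.37 and 3.21 in A673, or 54.5-fold. TFAP2B, a transcription factor of the neural crest, stood at 9.03, 8.82 and 8.04 against 3.01, 4.03 and 2.74, or 41.4-fold. PENK, the enkephalin precursor, stood at 10.05, 9.48 and 10.32 against 4.47, 5.09 and 4.39, or 39.4-fold. ALPL, the tissue-nonspecific alkaline phosphatase of mineralising bone, stood at 8.11, 7.94 and 7.91 against 3.77, 3.84 and 3.73, or 18.4-fold. None of the 4 changed sides with any siRNA.

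ALDH1A1, the retinaldehyde-oxidising enzyme often used as a marker of tumour subpopulations, came next at 7.18, 6.72 and 7.40 in SK-N-MC against 2.52, 2.76 and 2.91 in A673 (difference -4.37 ± 0.15, adjusted p = 3.57e-07). CDKN2A, the locus of the cell cycle inhibitor p16 and of ARF, stood at 7.39, 7.46 and 7.35 against 3.52, 3.36 and 3.48 (-3.94 ± 0.11, adjusted p = 1.98e-07). The array does not tell its products apart at the level of the gene. LSAMP, a neural adhesion molecule, stood at 7.90, 7.88 and 7.94 against 3.97, 4.25 and 4.35 (-3.72 ± 0.11, adjusted p = 2.48e-07). LCP1, the leukocyte form of plastin, stood at 9.06, 8.62 and 8.92 against 5.77, 5.24 and 5.42, or 10.5-fold (adjusted p = 2.63e-07), and A673 held it well above the median gene too. FAP, a surface protease of activated fibroblasts, was 10.5-fold higher in SK-N-MC (adjusted p = 1.96e-06). The selenoprotein gene SELENOP was 12.7-fold higher there and the selenium-binding protein gene SELENBP1 9.10-fold. So was the thyroid hormone and aromatic amino acid transporter gene SLC16A10, by 9.42-fold. FUT8, which adds core fucose to glycoproteins, and GALNT17, of a family that starts O-glycans, differed by 9.09-fold and 13.8-fold. The other leading genes were CMBL, ELAPOR2, MFAP4, ARHGAP15, TMEFF2 and ARHGAP28, with differences between -4.15 and -3.29.

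**Figure D2:**
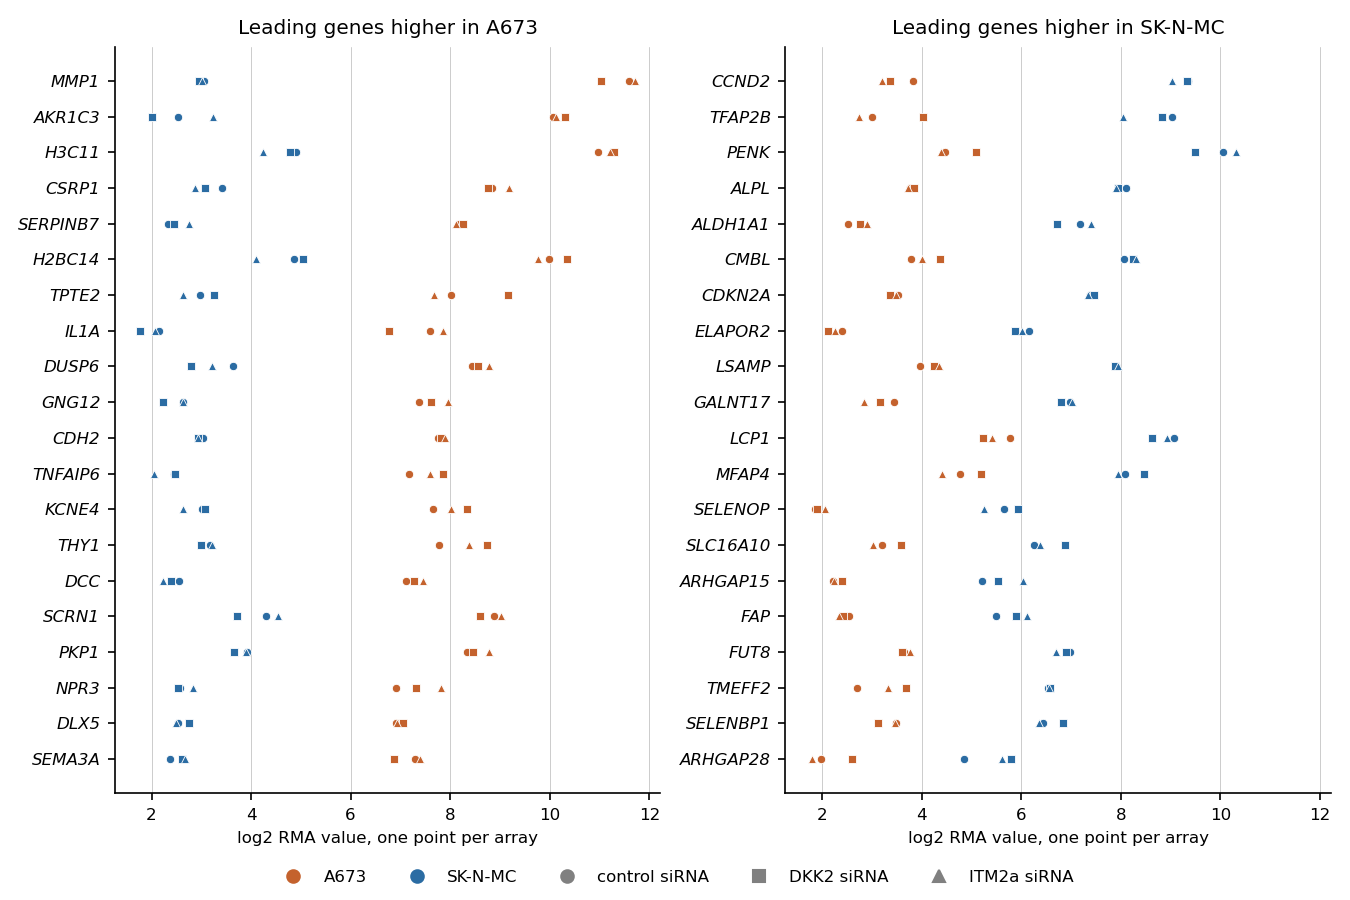
Log2 RMA values (x axis) on every array for the 20 genes higher in A673 and the 20 higher in SK-N-MC with the largest smallest-of-3 difference, with colour for the line and marker shape for the siRNA. The values of the lines are separated in every row, and the gap between them exceeds the spread among the 3 siRNAs of a line; for CDKN2A the lines sit at 3.46 and 7.40 with SDs of 0.08 and 0.06.

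The sequence before the start of these genes was searched for TGANTCA, where N is any base, which reads the same on either strand. The usual site of AP-1 (the FOS and JUN family) has C or G at N, so this pattern is wider and its matches are not counts of AP-1 sites. RefSeq starts (GRCh38.p14) were listed for 14 of the 20 leading A673 genes and for 14 of the 20 leading SK-N-MC genes. The 250 bases before a start held the motif in 4 of the former (IL1A, SERPINB7, TNFAIP6 and CDH2) and in 1 of the latter (FUT8), counting a gene once if any of its starts held a match. Counted the same way, 7.06% of all 14239 measured genes with a listed start held one. The start with most matches is shown for each of the 5, 5′ to 3′ along the gene's strand and ending at the base before the start, with matches in capitals. MMP1, CCND2 and THY1 had no entry.
IL1A, chr2:112784401-112784650, minus strand: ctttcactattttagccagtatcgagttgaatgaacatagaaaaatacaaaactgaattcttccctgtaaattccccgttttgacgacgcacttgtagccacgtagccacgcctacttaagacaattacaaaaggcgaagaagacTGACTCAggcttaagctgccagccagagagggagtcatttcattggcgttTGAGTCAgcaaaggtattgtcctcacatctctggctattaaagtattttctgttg
SERPINB7, chr18:63775168-63775417, plus strand: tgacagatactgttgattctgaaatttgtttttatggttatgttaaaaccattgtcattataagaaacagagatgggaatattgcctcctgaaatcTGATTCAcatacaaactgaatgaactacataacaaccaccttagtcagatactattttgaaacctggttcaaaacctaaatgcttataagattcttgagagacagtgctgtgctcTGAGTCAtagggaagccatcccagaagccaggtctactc
TNFAIP6, chr2:151357342-151357591, plus strand: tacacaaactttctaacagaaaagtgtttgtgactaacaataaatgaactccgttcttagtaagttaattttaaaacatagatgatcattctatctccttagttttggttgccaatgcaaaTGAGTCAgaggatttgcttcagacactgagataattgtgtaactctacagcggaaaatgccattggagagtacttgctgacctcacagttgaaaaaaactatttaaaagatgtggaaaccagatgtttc
CDH2, chr18:28036642-28036891, minus strand: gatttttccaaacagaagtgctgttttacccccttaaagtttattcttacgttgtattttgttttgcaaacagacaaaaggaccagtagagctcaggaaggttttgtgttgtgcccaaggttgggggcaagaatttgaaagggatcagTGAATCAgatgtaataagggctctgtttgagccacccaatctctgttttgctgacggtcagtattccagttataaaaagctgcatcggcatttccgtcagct
FUT8, chr14:65410342-65410591, plus strand: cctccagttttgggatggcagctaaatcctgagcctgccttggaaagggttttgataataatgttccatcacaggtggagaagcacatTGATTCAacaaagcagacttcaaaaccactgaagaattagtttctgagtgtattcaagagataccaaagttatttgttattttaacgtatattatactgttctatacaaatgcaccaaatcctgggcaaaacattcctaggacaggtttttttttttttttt
IL1A and SERPINB7 held 2 matches each, at 105 and 55 and at 154 and 39 bases before the start. The matches in CDH2 and FUT8 and the farther one in SERPINB7 have A or T at N, and the others C or G. Among all listed starts of measured genes 5.31% held a match (1067 of 20109). The share was 8.22% (62 of 754) for genes at least 2-fold higher in A673 in every pair and 4.79% (22 of 459) for those higher in SK-N-MC. By gene, the shares were 11.5% (54 of 469) and 7.77% (22 of 283). A pair of ETS motifs was searched on both strands as well. GGAAGGAA, part of the GGAA repeats that the Ewing fusion binds, was held by 3.16% of all starts, 4.24% of those higher in A673 and 3.27% of those higher in SK-N-MC. CCGGAAGT, the classical ETS site, was held by 4.48%, 1.99% and 1.96%. Several starts of a gene overlap or share sequence, so starts are not independent. A match describes letters in this window and shows no binding.

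ERK output genes stood higher in A673. Of 22 measured members 14 were higher in A673 against 3 in SK-N-MC, with a median difference of 1.32 beside -0.02 over all genes. Among the feedback inhibitors on the list, DUSP4, DUSP5, DUSP6, SPRY2, SPRY4 and SPRED2 were higher in A673, while SPRY1, SPRED1 and SPRED3 missed the threshold, with differences of 0.27, 0.29 and 0.17. DUSP7, an ERK phosphatase outside the list that was named after its values were seen, went the other way, at 6.24, 6.41 and 5.72 in A673 against 7.49, 7.69 and 7.24 in SK-N-MC (2.55-fold higher in SK-N-MC, adjusted p = 4.43e-05). SPRY2, a Sprouty protein, stood at 4.55, 3.84 and 4.45 in A673 against 2.38, 2.25 and 2.29 in SK-N-MC, and SPRED2 at 6.40, 6.55 and 6.35 against 4.51, 4.01 and 4.77 (adjusted p = 1.81e-05 and 5.78e-05). The ETS factors of the PEA3 group, which ERK induces, were all higher in A673. ETV1 stood at 6.16, 5.92 and 6.29 against 2.76, 2.28 and 2.56 (12.1-fold, adjusted p = 2.63e-07), ETV5 at 6.46, 6.54 and 6.77 against 3.74, 3.57 and 3.98 (7.11-fold, adjusted p = 6.8e-07) and ETV4 at 4.81, 4.69 and 4.74 against 2.75, 2.56 and 2.71 (4.21-fold, adjusted p = 2.85e-06). EGR1, an immediate early factor, was 8.77-fold higher and EPHA2, an ephrin receptor, 6.14-fold higher. The 3 members higher in SK-N-MC were MYC (2.07-fold), EPHA4 (2.81-fold) and SPHK1 (3.00-fold).

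Immediate early genes, transcribed within minutes of a growth stimulus, had 9 of 22 members higher in A673 and 0 in SK-N-MC by limma, with a median of 0.35 (at an unadjusted p under 0.05, 11 in A673 and 0 in SK-N-MC). FOSL2, a FOS-family partner of JUN, stood at 6.12, 5.11 and 6.03 in A673 and 3.19, 3.13 and 3.43 in SK-N-MC (5.67-fold, adjusted p = 1.58e-05), and JUN at 6.58, 5.95 and 6.39 against 6.00, 5.52 and 5.94 (1.40-fold, adjusted p = 0.0083). The JUN arrays of the lines overlapped, and without the siRNA block JUN missed the threshold (adjusted p = 0.0864). FOS and FOSL1 had differences of -0.02 and 0.25 and missed the threshold (adjusted p = 0.94 and 0.127).

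Of 31 growth factor genes 9 were higher in A673 against 3 in SK-N-MC, while 19 missed the threshold and the median was 0.01. Whether they bear on the ERK output genes was not tested. HBEGF, an EGF receptor ligand, stood at 7.56, 6.05 and 7.38 in A673 and 3.27, 3.13 and 3.30 in SK-N-MC (13.6-fold, adjusted p = 9.13e-06). EGF was 3.59-fold and PDGFC 3.03-fold higher in A673, while IGF1 was 3.06-fold higher in SK-N-MC. Among 33 receptor tyrosine kinases 5 were higher in A673, led by the collagen receptor DDR2 (4.29-fold) and FLT1 (3.19-fold), and 8 in SK-N-MC, led by KIT (3.86-fold) and INSR, the insulin receptor (3.50-fold). With either ITM2A siRNA array left out, 3 of the 33 were higher in A673. IGFBP4 and IGFBP5, which bind insulin-like growth factors, were 3.48-fold and 2.26-fold higher in SK-N-MC.

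**Figure D3:**
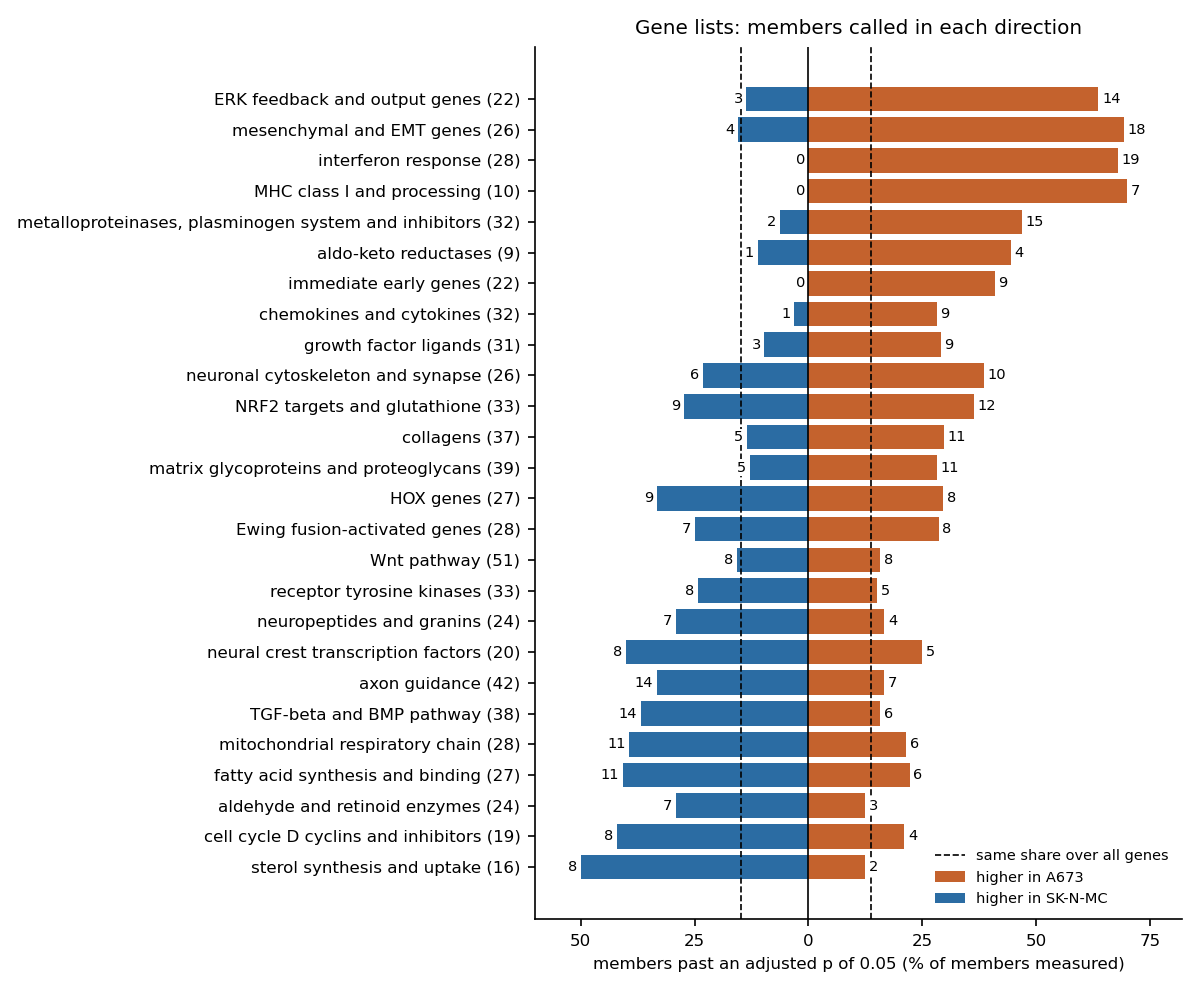
Share of each list's measured members past an adjusted p of 0.05, to the right for higher in A673 and to the left for higher in SK-N-MC (x axis, percent), with the number of members in brackets, the counts at the bar ends and dashed lines at the shares over all genes (13.8% and 14.7%). ERK feedback and output genes (14 of 22) and mesenchymal genes (18 of 26) extend far to the right, and sterol synthesis genes (8 of 16) and TGF-beta and BMP genes (14 of 38) to the left.

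Of 26 measured members of a list of mesenchymal and epithelial-mesenchymal transition genes, 18 were higher in A673 against 4 in SK-N-MC, with a median of 1.40. FN1 (fibronectin), the adhesive glycoprotein of the provisional matrix, stood at 11.72, 11.79 and 11.94 in A673 and 7.48, 6.95 and 6.64 in SK-N-MC (27.7-fold, adjusted p = 6.64e-07). VIM (vimentin), the mesenchymal intermediate filament, stood at 10.11, 10.14 and 10.23 against 8.06, 8.08 and 8.25 (4.08-fold, adjusted p = 3.14e-06). Both were expressed in both lines, and the A673 arrays were the higher ones throughout. NT5E (CD73), the ecto-enzyme that makes adenosine, was 22.6-fold higher in A673, smooth muscle actin ACTA2 18.3-fold, TGFBI 8.88-fold, CALD1 7.09-fold and the hyaluronan receptor CD44 5.01-fold. The exceptions included transcription factors that drive this transition. TWIST1 stood at 7.41, 7.22 and 7.12 in SK-N-MC and 5.96, 5.90 and 5.82 in A673, and SNAI2 at 4.44, 4.45 and 4.74 against 3.83, 3.34 and 3.33 (adjusted p = 3.14e-05 and 0.001). Tropomyosin TPM2 was also higher in SK-N-MC (3.90-fold).

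Integrin subunits, which anchor cells to matrix, were higher in A673 for 4 of 19 members, among them ITGB1, the common beta chain, at 8.13, 8.08 and 8.27 against 6.79, 6.62 and 6.75 (2.71-fold, adjusted p = 2.33e-05). ITGA4, the alpha chain of the VCAM1 receptor, went the other way, at 5.10, 4.87 and 5.05 in SK-N-MC and 3.27, 2.83 and 2.89 in A673 (adjusted p = 5.47e-06). Immunoglobulin-type adhesion genes split 8 to 6 among 27, with ICAM1 7.75-fold, NRCAM 3.62-fold and NCAM2 3.53-fold higher in A673 and LSAMP leading in SK-N-MC; with either ITM2A siRNA array left out, 2 were higher in SK-N-MC. PCDH7, a protocadherin, was 18.9-fold higher in A673.

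Other matrix-degrading enzymes stood higher in A673 beside MMP1. In a list of metalloproteinases, the plasminogen system and their inhibitors, 15 of 32, MMP1 included, were higher in A673 against 2 in SK-N-MC, with a median of 0.38. MMP3 (stromelysin) stood at 6.46, 6.26 and 6.11 in A673 and 2.31, 2.37 and 2.62 in SK-N-MC (14.4-fold, adjusted p = 5.97e-07), MMP10 was 5.50-fold higher and the gelatinase genes MMP2 and MMP9 6.48-fold and 3.34-fold. PLAU (urokinase), which converts plasminogen to plasmin, stood at 6.69, 6.19 and 6.71 against 3.17, 3.22 and 3.50 (9.39-fold, adjusted p = 9.07e-07). Inhibitors were found on both sides, with SERPINE2, an inhibitor of urokinase and thrombin, 14-fold higher in A673 and TIMP3, a matrix-bound metalloproteinase inhibitor, 3.14-fold higher in SK-N-MC. With any of the 6 arrays left out, TIMP3 was the 1 member higher in SK-N-MC. MMP3 and MMP10 are chromosome neighbours of MMP1. MMP2 ends a run from ZNF267 of 25 neighbours, among genes at or above the median level, that were all higher in A673 (median 1.04). Whether these protease differences are separate from those of their neighbours was not tested.

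Structural matrix genes went both ways over the full lists. Of 37 collagen genes 11 were higher in A673 against 5 in SK-N-MC, and of 39 matrix glycoproteins and proteoglycans 11 and 5, each with a median of -0.02. With dim genes (mean below the median gene) taken out, 9 of 19 collagen genes were higher in A673 against 4, with a median of 0.40. Of the 14 glycoproteins and proteoglycans left, 10 were higher in A673 against 1, with a median of 1.33. This filter can take a gene in through the line where it is high, which limits how these shares and medians can be read. Over all 9209 genes it kept, the counts were 2113 and 2359 and the median was -0.05. The collagen count in A673 was 7 with either control array left out and 6 with either ITM2A siRNA array left out, and the glycoprotein count in SK-N-MC was 3 with either DKK2 or ITM2A siRNA array left out. COL3A1, of reticular fibres, stood at 6.43, 6.52 and 6.03 in A673 and 3.47, 3.68 and 3.68 in SK-N-MC (6.58-fold, adjusted p = 3.12e-06), while COL1A2, of type I collagen in bone, stood at 7.63, 7.58 and 7.77 against 9.09, 9.34 and 9.03 (2.82-fold higher in SK-N-MC, adjusted p = 4.9e-05). The fibrillins of elastic microfibrils, FBN2 and FBN1, were 13.2-fold and 6.33-fold higher in A673, and the small proteoglycan gene DCN 5.06-fold higher in SK-N-MC.

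Inflammatory mediators stood higher in A673, in 9 of 32 chemokine and cytokine genes against 1, with a median of 0.21. CCL2, which draws monocytes, stood at 8.24, 7.46 and 6.50 in A673 and 3.48, 3.20 and 3.41 in SK-N-MC (16.4-fold, adjusted p = 1.27e-05). CXCL8 (interleukin 8) stood at 7.45, 6.25 and 7.18 against 3.29, 3.53 and 2.93 (13.1-fold, adjusted p = 2e-05), and IL1B was 7.15-fold higher. CXCR4, the receptor of CXCL12, was the exception, at 5.44, 6.08 and 5.55 in SK-N-MC and 2.69, 3.15 and 3.31 in A673 (6.22-fold, adjusted p = 4.68e-06).

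Interferon-response genes also counted as higher in A673 in 19 of 28 members against 0, with a median of 1.43, but this difference depended on the siRNA. At an unadjusted p under 0.05 limma counted 24 in A673 against 0 in SK-N-MC. The median difference was 2.67 with the control siRNA, 0.04 with the DKK2 siRNA and 1.45 with the ITM2A siRNA. With the control siRNA 25 of 28 were at least 2-fold higher in A673, and with the DKK2 siRNA 3 were, while 1 was at least 2-fold lower. IFIT1 stood at 8.12, 3.41 and 7.39 in A673 against 5.10, 3.15 and 4.81 in SK-N-MC, and OAS1 at 8.84, 4.21 and 7.69 against 5.96, 4.30 and 5.24 (adjusted p = 0.0092 and 0.0224). The 2 A673 arrays without the DKK2 siRNA were the high ones for both genes, and with the DKK2 siRNA the lines stood close together. The median difference was 0.94 without either control array and 2.05 without either DKK2 siRNA array, and the number higher in A673 was 12, 25 and 8 without the control, DKK2 and ITM2A siRNA arrays. Without the siRNA block 8 of the 28 passed, and IFIT1 and OAS1 did not (adjusted p = 0.23 and 0.249). With the robust prior in limma 8 passed too, again without IFIT1 and OAS1 (adjusted p = 0.114 and 0.171), and with an intensity trend 23 did. IFIT1 also missed the threshold without either ITM2A siRNA array (adjusted p = 0.107), and OAS1 without either of those or either control array (adjusted p = 0.19 and 0.0793). MHC class I and antigen processing genes had 7 of 10 measured members higher in A673 against 0 in SK-N-MC. Their medians were 1.59, 0.61 and 1.04 by siRNA. At an unadjusted p under 0.05 by limma the counts were 9 in A673 and 0 in SK-N-MC. Another 6 of the 16 listed genes were not analysed. Within that list ERAP1, which trims peptides for MHC class I, was even, at 7.42, 7.01 and 7.10 against 4.81, 4.33 and 4.51 (6.18-fold, adjusted p = 8.18e-07). TAP1, a peptide transporter, followed the interferon genes, at 7.42, 5.20 and 6.13 against 4.68, 4.50 and 4.57 (adjusted p = 0.0038). ERK output and mesenchymal genes kept their medians across siRNAs, at 1.18, 1.39 and 1.50 and at 1.22, 1.37 and 1.14.

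**Figure D4:**
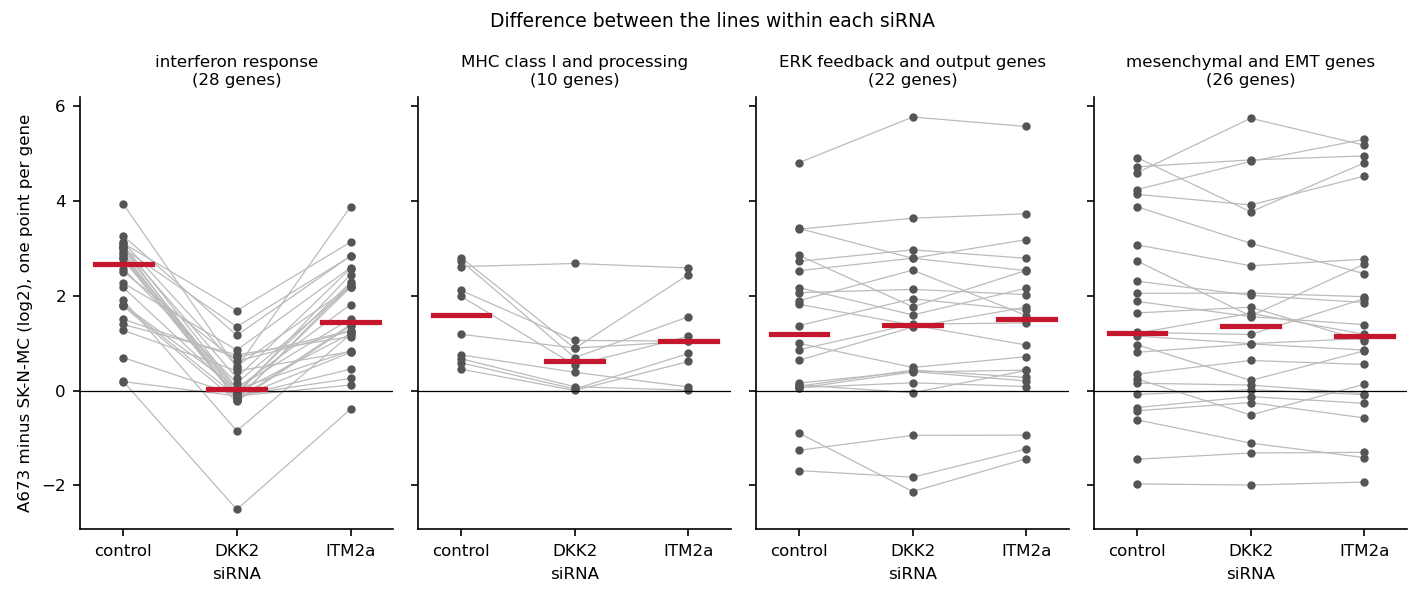
A673 minus SK-N-MC difference (y axis, log2) of each member of 4 gene lists within each siRNA (x axis), with grey lines joining a gene and red bars at the list median. Interferon-response genes fall from a median of 2.67 with the control siRNA to 0.04 with the DKK2 siRNA, while ERK output and mesenchymal genes hold medians between 1.14 and 1.50.

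Among 26 genes of the neuronal cytoskeleton and synapse 10 were higher in A673 against 6 in SK-N-MC, with a median of 0.08. Over the 14 members left when dim genes were taken out, the counts were 9 and 4 and the median was 1.35. Here too the filter can take a gene in through the line where it is high. The neurofilament subunits were split: NEFM stood at 6.33, 6.79 and 5.57 in A673 and 2.74, 3.16 and 2.68 in SK-N-MC (10.3-fold, adjusted p = 1.96e-06), whereas NEFH stood at 4.58, 4.47 and 4.51 against 7.55, 7.75 and 7.26 (8.0-fold higher in SK-N-MC, adjusted p = 1.23e-06). GAP43, a growth cone protein, and SYT1, the calcium sensor of synaptic vesicles, were 17.0-fold and 10.8-fold higher in A673. DCX, a microtubule protein of migrating neurons, and MAPT (tau) were 8.98-fold and 2.98-fold higher in SK-N-MC.

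Of 24 neuropeptide genes 7, PENK included, were higher in SK-N-MC and 4 in A673 (median -0.05). CPE, the carboxypeptidase that matures prohormones, stood at 6.68, 7.15 and 7.01 in SK-N-MC and 3.80, 4.45 and 3.87 in A673 (7.49-fold, adjusted p = 1.12e-06), and GRP and CCK were 2.43-fold and 2.98-fold higher. PAM, the enzyme that amidates peptides, went the other way, at 7.60, 7.43 and 7.66 in A673 and 3.78, 3.79 and 3.60 in SK-N-MC (14.3-fold, adjusted p = 2.48e-07). The neuropeptide Y receptor NPY5R was 15-fold higher in A673 and NPY1R 2.01-fold.

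Neural crest transcription factors were higher in SK-N-MC for 8 of 20 and in A673 for 5 (median 0.06). Beside TFAP2B, SK-N-MC held more TFAP2A (5.95, 6.54 and 6.04 against 4.88, 4.20 and 4.27, adjusted p = 0.0003546) and more MSX2 (4.34-fold). A673 held more ETS1, at 6.68, 5.62 and 6.21 against 2.39, 2.64 and 2.71 (12.0-fold, adjusted p = 7.32e-06), beside DLX5. Sympathetic and neuronal transcription factors were split 3 to 3 among 16, with POU3F2, a neural POU-domain factor, 5.67-fold higher in SK-N-MC and POU4F1 2.74-fold higher in A673. Axon guidance genes were higher in SK-N-MC for 14 of 42 and in A673 for 7 (median -0.03). SK-N-MC led for EPHA7 (4.18-fold) and the SLIT receptor ROBO2 (3.89-fold), and A673 for DCC, SEMA3A and EPHA2. HOX genes, which mark position along the body axis, differed in small steps, with 8 of 27 higher in A673 against 9 in SK-N-MC and 1 at least 2-fold apart in every pair, HOXC11, which was higher in SK-N-MC (3.12-fold, adjusted p = 6.23e-05).

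Bone-related genes did not all follow ALPL. Of 19 osteoblast and mineralisation genes 5 were higher in SK-N-MC and 3 in A673, with a median of -0.02. Over the 7 members left when dim genes were taken out, the counts were 4 and 3 and the median was -1.18, under a filter that can take a gene in through the line where it is high. BMP2, an osteogenic ligand, stood at 6.25, 6.26 and 6.00 in SK-N-MC and 3.82, 3.43 and 3.17 in A673 (6.49-fold, adjusted p = 1.64e-06), and SPARC (osteonectin) at 8.18, 8.31 and 8.14 against 9.33, 9.30 and 9.24 (2.11-fold higher in A673, adjusted p = 0.0001141). RUNX2, the master factor of osteoblasts, had a difference of 0.33 and missed the threshold (adjusted p = 0.063).

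TGF-beta and BMP pathway genes were higher in SK-N-MC for 14 of 38 and in A673 for 6, with a median of -0.05. The BMP target genes ID1, ID3 and ID4 were 2.44-fold, 2.52-fold and 2.69-fold higher in SK-N-MC, and SMAD9, which transmits BMP signals, 2.83-fold. CHRDL1, a secreted BMP antagonist, stood at 6.61, 6.39 and 6.96 in SK-N-MC and 3.52, 3.61 and 3.42 in A673 (8.79-fold, adjusted p = 2.14e-06). TGFBR2, the ligand-binding TGF-beta receptor and a gene that the Ewing fusion is known to repress, stood at 6.24, 6.00 and 6.20 in A673 and 3.25, 3.05 and 3.67 in SK-N-MC (7.07-fold, adjusted p = 1.46e-06).

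Wnt pathway genes were split 8 to 8 among 51 (median -0.04). In either direction 31.4% of them passed the threshold, beside 28.5% of all genes. Without either ITM2A siRNA array 5 were higher in SK-N-MC. DKK2, a secreted Wnt modulator, was 2.02-fold higher in A673 in the fit over all arrays (adjusted p = 0.0007211), and by 0.63, 1.23 and 1.19 on the log2 scale with the control, DKK2 and ITM2A siRNA. The arrays with the DKK2 siRNA enter that value, and without the siRNA block it missed the threshold (adjusted p = 0.124). FZD4, a Wnt receptor, and the antagonist FRZB were 2.79-fold and 3.37-fold higher in A673, and LEF1, a transcription factor of the pathway, 2.53-fold higher in SK-N-MC. Notch genes were split 6 to 8 among 27, with the ligand JAG1 and the target HES1 2.32-fold and 2.53-fold higher in A673.

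Metabolic genes differed by pathway. AKR1C3 was joined by its neighbours AKR1C1 and AKR1C2, at 24.8-fold and 6.59-fold, and 4 of 9 aldo-keto reductases were higher in A673 and 1 in SK-N-MC. These copies are near-identical in sequence, and probes can share signal between them, so the separate values are uncertain. NRF2 targets and glutathione genes were mixed, 12 to 9 among 33, with 5 higher in SK-N-MC without either ITM2A siRNA array. NQO1, a quinone reductase, was 2.66-fold and GSTM4 6.19-fold higher in A673, and MGST2 stood at 6.58, 6.27 and 7.16 in SK-N-MC against 3.31, 3.42 and 3.44 (9.67-fold, adjusted p = 2.56e-06). Genes of aldehyde and retinoid metabolism were higher in SK-N-MC for 7 of 24 and in A673 for 3, among them RDH10, which makes retinaldehyde, and CYP26B1, which degrades retinoic acid, at 5.20-fold and 3.63-fold beside ALDH1A1.

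Glycolytic genes were higher in A673 for 6 of 21 and in SK-N-MC for 1, or 2 without either control array. In the fit over all arrays the other 14 missed the threshold, and the list median was -0.01. HK1, a hexokinase, stood at 6.18, 5.85 and 6.38 in A673 and 3.01, 3.43 and 3.86 in SK-N-MC (6.51-fold, adjusted p = 6.32e-06), PFKP and ENO2 were 3.17-fold and 5.16-fold higher, and the glucose transporter SLC2A1 was 2.12-fold higher in SK-N-MC. Sterol synthesis genes leaned to SK-N-MC, with 8 of 16 higher there and 2 in A673 and a median of -0.44. HMGCS1, which feeds the mevalonate pathway, stood at 9.13, 8.62 and 8.75 in SK-N-MC and 7.02, 6.70 and 7.01 in A673 (3.79-fold, adjusted p = 7.7e-06), and SREBF2, the transcription factor of the pathway, was 1.92-fold higher. LSS and SC5D, both later enzymes, were 1.33-fold and 1.78-fold higher in A673, and LSS missed the threshold without either control or ITM2A siRNA array. Respiratory chain genes were higher in SK-N-MC for 11 of 28 and in A673 for 6, with 0 at least 2-fold apart in every pair; these counts were 6 and 3 without either ITM2A siRNA array, and 2 were higher in A673 without either DKK2 siRNA array. The amino acid transporters SLC7A5 and SLC7A8, which use the same heavy chain, went opposite ways, 5.37-fold higher in A673 and 6.18-fold higher in SK-N-MC.

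Cell cycle regulators differed by member. In a list of D and E cyclins, their kinases, E2F factors and inhibitors, 8 of 19 were higher in SK-N-MC and 4 in A673. CCND1, the D cyclin typical of Ewing sarcoma, stood at 10.20, 10.12 and 10.40 in A673 and 9.34, 8.71 and 8.98 in SK-N-MC (2.35-fold, adjusted p = 0.0002368), opposite to CCND2, and CCND3 was 1.96-fold higher in SK-N-MC. CDKN1A (p21) was 3.37-fold higher in A673, and the death receptor gene FAS, a p53 target like CDKN1A, 7.0-fold. The p53 target list was split 5 to 5 among 20, with 3 higher in SK-N-MC when any of the 6 arrays was left out. Core proliferation genes had 2 of 30 higher in A673 and 5 in SK-N-MC, or 1 in A673 without either DKK2 or ITM2A siRNA array and 3 in SK-N-MC without either control array. TOP2A was 2.39-fold higher in SK-N-MC. Of 20 genes that surround CDKN2A and include it, 3 were higher in SK-N-MC and 0 in A673 by limma (CDKN2A, TUSC1 and MTAP). That is 15% of the 20, beside 14.7% of all genes higher in SK-N-MC. At an unadjusted p under 0.05 the counts were 0 in A673 against 3 in SK-N-MC, and without either DKK2 siRNA array 1 member was higher in A673. TUSC1 missed the threshold without either DKK2 or ITM2A siRNA array (adjusted p = 0.0813 and 0.163).

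Replication-dependent histone genes, a group noticed after the values were seen, differed in both directions. Over 56 measured genes the median difference was 0.54, with a range of -1.35 to 6.52. By limma 31 were higher in A673 and 13 in SK-N-MC, beside 13.8% and 14.7% of all genes. Under the rule of at least 2-fold in every pair, 22 stood higher in A673 and 2 in SK-N-MC. Over all genes that rule took in 3.24% and 1.97%. H3C11 stood at 10.97, 11.30 and 11.21 in A673 against 4.91, 4.77 and 4.24 in SK-N-MC, and H2BC4 at 4.46, 5.19 and 4.92 against 6.14, 6.24 and 6.26. These genes are near-copies of each other, so probe sets can share signal and single values are uncertain.

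The label of both lines as Ewing sarcoma was checked against genes that the fusion activates. CD99, the surface antigen used in diagnosis, stood at 10.53, 10.72 and 10.73 in A673 and 9.85, 9.79 and 9.82 in SK-N-MC. NKX2-2, a homeobox target of the fusion, stood at 5.31, 5.80 and 5.84 against 6.10, 6.22 and 6.25, PRKCB at 7.69, 8.08 and 8.16 against 8.44, 8.26 and 8.17 and LIPI at 7.82, 7.55 and 7.74 against 7.01, 6.78 and 6.82. NKX2-2 passed the threshold for higher in SK-N-MC (adjusted p = 0.0093) but not without either control array (adjusted p = 0.0525). All 4 genes lay above the median gene (4.04) on every array of both lines. Further Ewing sarcoma markers chosen for this check are not shown, so it covers these 4 alone. On the list of 28 fusion-activated genes, 25 had a mean over the 6 arrays at or above the median gene. Of 28 fusion-activated genes 8 were higher in A673 and 7 in SK-N-MC (median -0.12), but without either control array the median was 0.11, with 5 higher in SK-N-MC. Of 12 fusion-repressed genes 6 were higher in A673 and 1 in SK-N-MC (median 0.52), or 2 higher in SK-N-MC without either control array.

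The median marker of each other cell type lay below the median gene on every array, but single markers did not. LCP1 reached 9.06 in SK-N-MC, and KRT18, an epithelial keratin, stood at 9.35, 9.09 and 9.43 in A673 against 9.76, 9.70 and 9.21 in SK-N-MC, a difference that missed the threshold (adjusted p = 0.274). Leukocyte markers summed on the linear scale to 161 to 223 in A673 and 506 to 652 in SK-N-MC. LCP1 carries most of that gap, and PTPRC (CD45), the defining leukocyte marker, stood at 1.97, 2.06 and 2.0 in A673 and 1.90, 1.96 and 2.09 in SK-N-MC. Of 12 leukocyte markers 2 were higher in SK-N-MC (LCP1 and CORO1A) and 1 in A673 (CD68). Epithelial markers had 1 of 14 higher in SK-N-MC (MUC1) and 0 in A673, with CDH1 at 2.34 to 2.57 over all arrays. Endothelial markers had EMCN higher in SK-N-MC and EGFL7 in A673 among 12, Schwann and melanocyte markers S100B (5.66-fold) higher in SK-N-MC among 9, and skeletal muscle markers 1 of 14 higher in SK-N-MC. EGFL7 missed the threshold when any of the 6 arrays was left out, and MEF2C, the muscle marker, without either DKK2 or ITM2A siRNA array. Without either ITM2A siRNA array LCP1 was the 1 leukocyte marker higher in SK-N-MC, and 2 epithelial markers were higher in SK-N-MC and 1 in A673. Without either control array 2 endothelial, 2 muscle and 2 Schwann and melanocyte markers were higher in SK-N-MC. The part of other cell types in the line differences was not tested. In bulk RNA, more cells of a kind and more RNA per cell cannot be told apart.

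Genes that were in the top 25% on all 3 arrays of a line and in the lower 50% on all 3 of the other numbered 66 for A673 and 18 for SK-N-MC. MMP1, IL1A, CDH2, NT5E, GAP43, PAM, ETV1, HBEGF, CXCL8 and TGFBR2 were among the former, and CCND2, ALPL, ALDH1A1, CDKN2A, MGST2, BMP2 and CHRDL1 among the latter. Under the bounds of the top 10% and the lower 25% no gene met the rule in either line.

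Differences were also read along the chromosomes. In chromosome order (gene table of GRCh38.p14, used for order alone), runs of 25 neighbours among 9705 genes at or above the median level in at least 1 line were ranked by their median difference. The run from YAP1 to LAYN, which holds MMP1, MMP3 and MMP10 with the apoptosis inhibitor gene BIRC2 and the inflammatory caspase gene CASP4, had all 25 genes higher in A673 and a median of 1.46. Outside the protease genes of this run YAP1, the Hippo pathway coactivator, differed by 2.26, RDX by 2.11 and ATM by 1.04. The run from TRIM38 to H2BC10, a histone gene cluster, ranked next by median (1.45) but was mixed, with 16 of 25 genes higher in A673 and 9 lower, and a median of 0.72 over all 30 measured genes. The run from KLF6 to MCM10, which holds AKR1C1, AKR1C2 and AKR1C3, had all 25 higher and a median of 1.14. In SK-N-MC the lead was the run from RBM15B to TKT, with 24 of 25 higher there and a median of -1.02, followed by the run from RPL19 to KRT10-AS1, which holds ERBB2, TOP2A and IGFBP4, at -0.94. The level bound takes a gene in through the line where it is high, so the medians over all measured genes of the same stretches are smaller: 0.22 over 54 genes, 0.52 over 45, -0.43 over 43 and -0.71 over 42. Of 9153 such runs, 1246 had a median of at least 0.5 in size. The runs were chosen by these values and overlap, and no test was made.

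**Figure D5:**
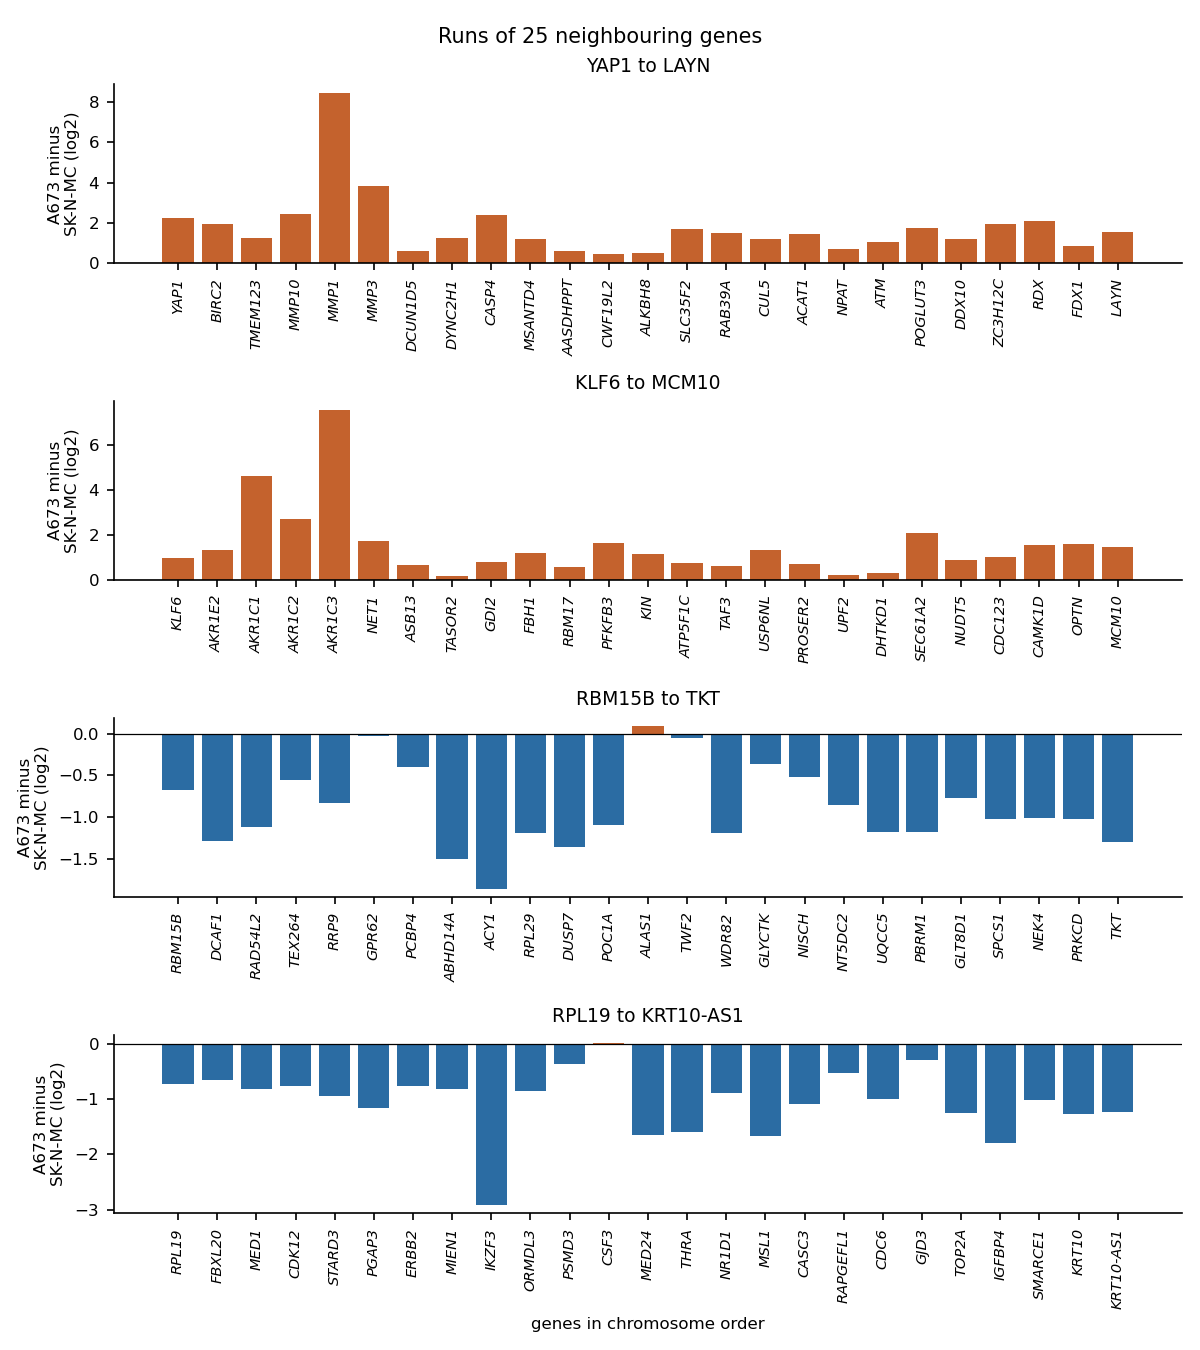
A673 minus SK-N-MC difference (y axis, log2) of the 25 genes of 4 runs, in chromosome order (x axis), among genes at or above the median level in at least 1 line; orange bars are higher in A673 and blue bars higher in SK-N-MC, and the y scales differ. All bars point up in the runs from YAP1 to LAYN and from KLF6 to MCM10, with MMP1 and AKR1C3 the tallest. Nearly all point down in the other 2. The first 2 runs have medians of 1.46 and 1.14, by which they were chosen. Over all measured genes of the same stretches the medians are 0.22 and 0.52.

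Of 173 miRNA genes with a probe set 1 was higher in A673 and 2 were higher in SK-N-MC. MIR21, the locus of a miRNA that many tumours overexpress, stood at 5.04, 3.98 and 4.52 in A673 and 2.30, 2.47 and 2.42 in SK-N-MC (4.35-fold, adjusted p = 0.0001065). The probe sets read transcripts of the locus, not the mature miRNA, whose RefSeq sequence (GRCh38.p14, chr17:59841273-59841294, plus strand) is given with the seed, bases 2 to 8, in capitals.
hsa-miR-21-5p: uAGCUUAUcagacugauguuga
MIR15A and MIR25 were 1.56-fold and 1.30-fold higher in SK-N-MC (adjusted p = 0.0047 and 0.0482). MIR15A missed the threshold without either ITM2A siRNA array (adjusted p = 0.0517), and MIR25 without either control or DKK2 siRNA array (adjusted p = 0.15 and 0.24) or without the siRNA block (adjusted p = 0.0962).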

How the data were processed

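RNA of 6 samples was labelled with biotin from 200 ng of total RNA and hybridised to Affymetrix whole-transcript arrays, per the labels' protocols. The deposited values are log2 intensities made with Expression Console and RMA, per the submitters' processing notes; no software version is given in these labels. RMA adjusts background, equalises the arrays' distributions and summarises probes, which compresses low values and removes global shifts.

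Of 33297 probe sets, 19460 carried 1 gene symbol, 1754 several and 12083 none in the platform annotation. Of the first, 19429 matched a current gene entry and 0 symbols changed. The probe set with the highest mean was kept for each of 18417 genes (769 had several).

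Line differences were fitted with limma 3.58.1 in R 4.3.3 (lmFit, eBayes, siRNA as a block, 2 residual degrees of freedom), adjusted by Benjamini-Hochberg over all genes at 0.05, two-sided. The deviations of same-siRNA arrays correlated at 0.123, 0.227 and 0.149 between lines, and those of other pairs at -0.133 to 0.009. Deviations were taken from each line's own mean, so the values of other pairs follow in part from the same-siRNA ones. The pairing by siRNA rests on the labels. On simulated data with 200 changed genes the fit recovered 8.8% of differences of 0.5, 93.6% of 1 and 100% of 2 and 4, with 4.67% false calls. The simulation drew independent normal noise from the fit's own variance model, and far more genes (28.5%) were called on the arrays. Its rates therefore describe the fit under its own assumptions and are not error rates of these data. Gene lists are described by counts and medians with no set test. Named genes are DKK2 and ITM2A, the 7 marker genes, the 20 leading genes of each line and members of the lists or runs. Members and lists were chosen with earlier results of these data known. In all, 13 alternatives to the fit were run, 6 of which leave out 1 array. Genome builds were needed only for RefSeq sequences and gene order.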

Additional observations from a re-analysis of the deposited data

Results flagged for a closer look

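THUMPD3-AS1, a long noncoding RNA gene, stood apart because its line difference changed sign with the siRNA. It was lower in A673 with the control siRNA (difference -1.51, 2.52 against 4.04) and with the ITM2A siRNA (-0.96, 2.24 against 3.20), and higher in A673 with the DKK2 siRNA (1.94, 4.02 against 2.08). Each value rests on 1 array per line, and the difference between siRNAs was not tested.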

How the results depend on the processing

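With no replicate block, 2372 genes were higher in A673 and 2472 in SK-N-MC, against 2549 and 2707 with siRNA as the block that pairs the arrays. Over the other settings of the fit on all 6 arrays the counts were 2113 to 2627 and 2359 to 3057, and with 1 array left out 1882 to 2266 and 1847 to 2329. Leaving out an A673 array or the SK-N-MC array of the same siRNA gives the same fit, with 1 residual degree of freedom. Centring each array on its median moved the median of all genes to -0.06 and the share of calls higher in A673 from 48.5% to 43.8%.

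Of 190 named genes past the threshold, 163 were tested in all 13 settings and 150 of these stayed past it in each. The other 27 were not tested with dim genes left out, and 25 of them stayed past it in the remaining settings. The 15 others missed it in at least 1, and 0 of the 190 changed sign. With 1 array left out, the differences of FOS (-0.12 to 0.15), CDH1 (-0.0918 to 0.0255) and PTPRC (-0.0053 to 0.0843) changed sign, as did PTPRC with median centring (-0.0105), all far from the threshold. Under the bounds of the top 10% and the lower 25%, 0 genes were on in either line; the cause was not tested. The mesenchymal median rose from 1.40 to 1.82 with dim genes left out. That setting tests fewer genes and can take a gene in through the line where it is high. With 1 array left out the mesenchymal median ran from 1.27 to 1.41. The sterol synthesis median was -0.48 with median centring and -0.43 to -0.35 with 1 array left out, and the ERK output median 1.30 to 1.48; the cause was not tested. Probe sets near background compress differences, so folds of genes listed at 2 to 3 in a line are limited by signal over background.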

Other observations

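Among 13837 probe sets with several gene symbols or none, which entered no comparison, 110 (0.795%) had all A673 arrays above all SK-N-MC arrays by at least 2-fold in every siRNA pair, and 90 (0.65%) the reverse.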
